A study of Yarrowia lipolytica with 8 samples.

Results

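The transcriptome of the oleaginous yeast *Yarrowia lipolytica* strain ACA DC 50109 was compared before and after glycerol limitation under controlled pO2, the dissolved oxygen tension. The 4 libraries of this culture, of 8 in the series, are pO2-1 replicates 1 and 2 (before) and pO2-2 replicates 1 and 2 (after). All were taken from cell mass grown on a mixture of glucose and glycerol in nitrogen-limited medium, so that glucose was still present after glycerol limitation and the cells before it were already short of nitrogen. The sample labels number the groups, and which number is before and which is after was taken from the paper. The reads were mapped to another strain, CLIB122, whose coordinates are used here. The other 4 libraries, pO2-UN-2 (before) and pO2-UN-3 (after), come from a culture without pO2 control and serve only to show where the responses differed.

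Yeast growth is closely tied to ribosome production. RNA polymerase I makes the large ribosomal RNAs, RNA polymerase III makes tRNA and the small ribosomal RNA, a large set of nucleolar assembly factors processes them, and the ribosomal proteins are added to them. Glycerol enters central metabolism through glycerol kinase and glycerol-3-phosphate dehydrogenase and is a favoured carbon source of this species.

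Of 6371 genes listed, 6218 reached an FPKM (fragment counts scaled for gene length and library total) of 1 or more in 2 or more libraries of the controlled culture and were tested with limma on log2(FPKM + 1). The depth, estimated from the steps between low FPKM values, was 5280000 to 5380000 fragments per library. Calls required a p below 0.05 after Benjamini-Hochberg adjustment and a log2 fold change of at least 2, which 592 genes (9.52%) passed as higher and 267 genes (4.29%) as lower after glycerol limitation. At a log2 fold change of at least 1 these counts were 1400 (22.5%) and 787 (12.7%), and "rose" and "fell" below refer to this lower minimum unless the higher one is named. The median over all tested genes was 0.13, and median-of-ratios scaling moved it down by 0.11. The variance between replicates was only 1.09 and 1.19 times the counting noise of the fragments before and after (chi-square p = 2.15e-06 and 5.57e-20 over 5328 and 5366 genes). The p-values measure this small spread. With it 5136 of the 6218 tested genes had an unadjusted p from limma below 0.05, so the calls rest mostly on the fold change. The study calls the replicates of each phase biological, and whether they came from separate fermentations is not given in the sources used here. With 2 libraries per group no exact permutation test of a single gene can go below p = 0.333. Annotations are the KEGG orthology hits in the deposited tables. Of the called genes, 161 of the 592 higher and 91 of the 267 lower ones had none, as did 36.6% of all tested genes.

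The genes of the cytosolic ribosome rose together. Of 73 genes annotated as cytosolic ribosomal proteins, all tested, 68 passed the higher minimum upwards and 1 downwards, and their median log2 fold change was 2.92. Their summed FPKM made up 1.85% and 1.86% of all FPKM in the libraries before glycerol limitation and 11.9% and 11.7% after it. YALI0_B12826g, for protein L13e of the large subunit, had an FPKM of 141 and 133 before and 1736 and 1663 after, and the log2 fold change was 3.62 (SE 0.040, adjusted p from limma 2.4e-08). YALI0_E14465g, for S2e of the small subunit, had 93.2 and 93.5 before and 1168 and 1185 after, a log2 fold change of 3.64. In both genes every library after glycerol limitation lay above every library before it, as the naming rule given below required. The ubiquitin fusion S27Ae, YALI0_F09790g, was the most abundant ribosomal protein gene before, with 1547 and 1545, and rose less, to 4625 and 4578 (log2 fold change 1.57). Both members that were lower after limitation, YALI0_C12496g (annotated L3e, log2 fold change -2.65) and YALI0_F01056g (annotated L17e, -0.59), carry these names through hits to other organisms.

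Ribosome assembly factors followed the same direction, with 86 of 97 members rising, none falling (1 under median-of-ratios scaling) and a median of 2.55. The largest change was in YALI0_A03905g, ribosome production factor 2, which acts in the assembly of the large subunit. Its FPKM was 3.88 and 5.08 before and 152 and 153 after (log2 fold change 4.82, SE 0.12, adjusted p from limma 3.9e-07). Of 22 subunits of RNA polymerases I and III, 16 rose and none fell, against 22.5% and 12.7% of all tested genes. The largest subunit of RNA polymerase I, YALI0_F13783g, went from 7.92 and 8.30 to 81.5 and 87.6 (log2 fold change 3.23), and RPC6 of RNA polymerase III, YALI0_F09295g, from 7.74 and 6.52 to 67.9 and 70.6 (3.12). UTP19, YALI0_F20284g, a factor of small subunit assembly, followed with 1.58 and 1.33 before and 47.9 and 46.6 after (4.30). The groups did not overlap in any of these genes.

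Translation factors rose in 38 of 53 cases and fell in none, with a median of 1.39. Elongation factor 1-alpha, YALI0_C09141g, which brings aminoacyl-tRNA to the ribosome, had the highest FPKM of all genes both before (6714 and 6844) and after (15509 and 15273). Elongation factor 3, YALI0_E13277g, an ATPase that fungal ribosomes require, went from 219 and 226 to 1777 and 1771 (log2 fold change 2.99). A gene annotated as elongation factor 2, YALI0_A20152g, rose most, from 2.41 and 2.93 to 118 and 118 (log2 fold change 5.03, SE 0.11). Of 39 aminoacyl-tRNA synthetases 9 rose, a share near the 22.5% of all tested genes, none passed the higher minimum, and their median was 0.61. Among them the leucyl enzyme YALI0_E24607g rose from 56.2 and 58.1 to 214 and 209 (log2 fold change 1.87). Chaperones had a median of 0.98, with 19 of 40 rising and 2 falling, against 22.5% and 12.7% of all tested genes. The Hsp70 gene YALI0_A00132g went from 87.9 and 82.4 to 1346 and 1335 (log2 fold change 3.96).

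**Figure D1:**
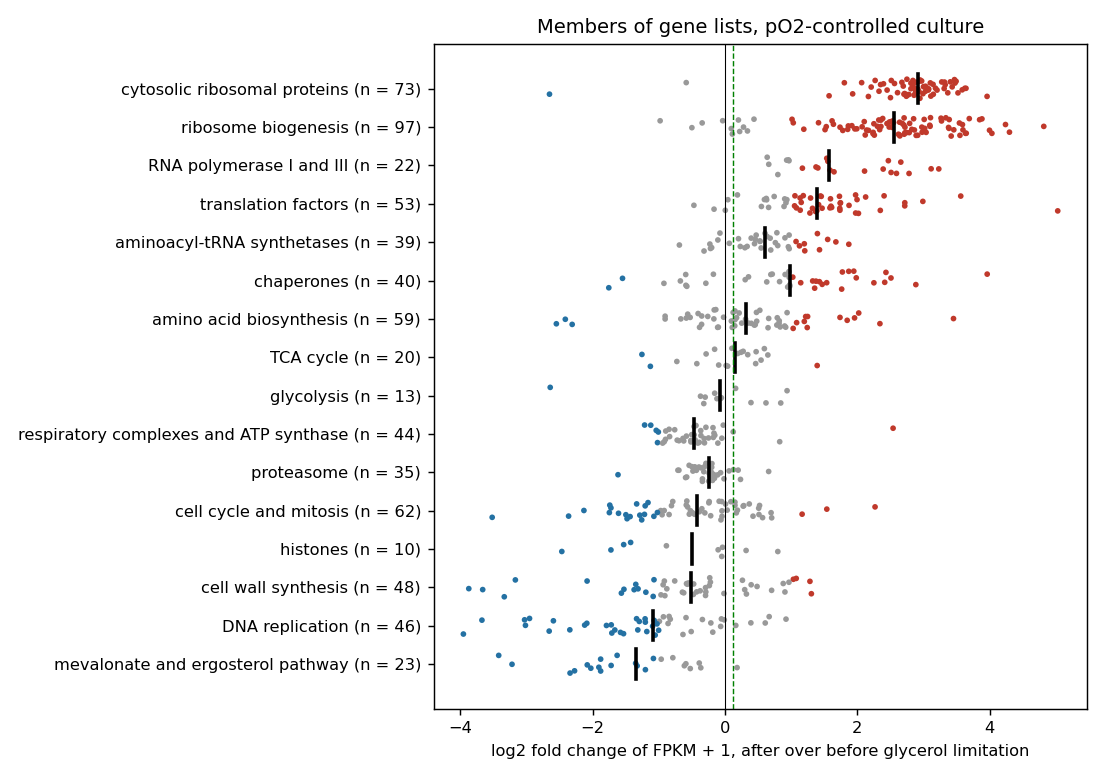
Log2 fold change of FPKM + 1 after over before glycerol limitation (x axis) for each member (point) of 16 gene lists (rows) at controlled pO2. Red and blue points rose or fell at an adjusted p under 0.05 and a log2 fold change of at least 1, grey points did neither, black bars are list medians and the dashed green line is the median of all tested genes at 0.13. Ribosomal proteins (median 2.92) lie at one end, and the mevalonate and ergosterol pathway (-1.35) at the other.

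DNA replication genes moved the other way. Of 46 members 27 fell, 10 of them past the higher minimum, none rose, and the median was -1.08. The catalytic subunit of DNA polymerase alpha, YALI0_E11869g, acts at the start of new DNA strands. Its FPKM was 171 and 175 before and 12.5 and 12.9 after (log2 fold change -3.67, SE 0.061, adjusted p from limma 8.2e-08). The genes of both subunits of ribonucleotide reductase, which makes the deoxynucleotides, fell to a like degree. YALI0_F31735g (M1) went from 540 and 538 to 65.0 and 65.4, and YALI0_B03630g (M2) from 501 and 494 to 59.4 and 61.9, log2 fold changes of -3.03 and -3.02. The large subunit of the primase that works with DNA polymerase alpha, YALI0_F04576g, went from 195 and 190 to 25.4 and 22.7 (-2.95). Of 10 histone genes 4 fell and none rose, although 1 rose when pO2-2 replicate 2 was left out. The H4 gene YALI0_F25883g fell from 4124 and 4117 to 738 and 753 (log2 fold change -2.47), whereas the H4 gene YALI0_C11385g had 2670 and 2622 before and 2573 and 2583 after. In the cell cycle list 18 of 62 genes fell and 3 rose. Over all tested genes 12.7% fell and 22.5% rose. The largest fall in that list was in a gene annotated as the G1/S cyclin CLN3, YALI0_C13926g, with 307 and 308 before and 28.3 and 23.8 after (log2 fold change -3.52).

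In the mevalonate and ergosterol pathway, which makes the main sterol of fungal membranes, 15 of 23 genes fell and none rose, with a median of -1.35. The summed FPKM of the list went from 0.759% and 0.757% of the total to 0.232% and 0.228%. The largest falls were in genes annotated to entry steps, although not every gene of these steps need have fallen. Acetyl-CoA C-acetyltransferase, YALI0_B08536g, had 793 and 806 before and 71.7 and 75.9 after (log2 fold change -3.42), and hydroxymethylglutaryl-CoA synthase, YALI0_F30481g, had 443 and 457 before and 44.2 and 51.0 after (-3.22). Sterol 14-demethylase, YALI0_B05126g, the target of azole antifungals, went from 460 and 460 to 92.8 and 95.9 (-2.27). Of 48 cell wall genes 13 fell and 4 rose, a share of falling genes that exceeded the background of 12.7%, with a median of -0.52. A glucan 1,3-beta-glucosidase, YALI0_E21109g (log2 fold change -3.87), and a chitin synthase, YALI0_E10417g (-3.66), were lowest.

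In central carbon metabolism the counts differed between lists. In glycolysis 1 of 13 genes fell and none rose, in the TCA cycle 1 of 20 rose and 2 fell, and in respiratory complexes and ATP synthase 1 of 44 rose and 5 fell, the last of these 9 under median-of-ratios scaling. The shares of these lists are below those of all tested genes in both directions, except for the fall in the respiratory list under that scaling. Most falls in the respiratory list were smaller than the minimum, and its median was -0.47. Its summed FPKM went from 4.13% and 4.20% of the total before to 2.63% and 2.68% after. In the list of the pyruvate node and gluconeogenesis 5 of 20 genes rose (2 under median-of-ratios scaling) and 4 fell, and in the pentose phosphate pathway 2 of 9 rose and 1 fell, against 22.5% and 12.7% of all tested genes. Both citrate synthase genes passed the lower minimum in opposite directions. YALI0_E02684g rose from 298 and 291 to 767 and 783 (log2 fold change 1.39), and YALI0_E00638g fell from 187 and 207 to 84.6 and 94.9 (-1.13). In the pentose phosphate pathway transketolase, YALI0_E06479g, rose from 465 and 470 to 1324 and 1373 (1.53) and transaldolase, YALI0_F15587g, from 527 and 546 to 1168 and 1190 (1.13). Pyruvate decarboxylase, YALI0_D10131g, which directs pyruvate to acetaldehyde, fell from 711 and 734 to 143 and 143 (-2.33).

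Only 2 runs of at least 4 neighbouring genes passed the higher minimum in one direction. The run that rose lies on chromosome A from 1264497 to 1276681 and holds YALI0_A12067g, annotated as a regulator of ribosome biosynthesis (log2 fold change 2.78), YALI0_A12111g (4.61), the helicase gene YALI0_A12133g of the DDX47/RRP3 type (3.06) and the SSF1/2 assembly factor YALI0_A12155g (2.53). The run that fell lies on chromosome F from 247294 to 254593. By annotation alone, it holds genes for a triosephosphate isomerase, YALI0_F01584g (249 and 234 before, 40.1 and 35.7 after), a dihydroxyacetone kinase, YALI0_F01606g (454 and 460 before, 17.8 and 17.9 after), ribose 5-phosphate isomerase B, YALI0_F01628g (682 and 671.1 before, 65.5 and 58.4 after), and a dehydrogenase of class EC 1.1.1, YALI0_F01650g (1042 and 1031 before, 161 and 164 after). Their log2 fold changes were -2.64, -4.60, -3.43 and -2.67, and the libraries before and after did not overlap in any of them. YALI0_F01584g is the gene counted above as falling in the glycolysis list, where no other member fell. YALI0_F01628g is the only one counted as falling in the pentose phosphate list. Both are in these lists by annotation alone.

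Among genes of glycine cleavage and folate enzymes, which handle one-carbon units, 6 of 12 passed the higher minimum downwards and 1 upwards. Over all tested genes these shares were 4.29% and 9.52%, and the group was formed after values were seen. The glycine cleavage system splits glycine in mitochondria and passes its carbon to folate. Its H protein, YALI0_E00242g, had 2605 and 2617 before and 385 and 413 after (log2 fold change -2.71), glycine dehydrogenase, YALI0_A09856g, had 807 and 805 before and 132 and 136 after (-2.58), and aminomethyltransferase, YALI0_F02849g, had 1089 and 1099 before and 55.7 and 47.8 after (-4.38). Another gene with the aminomethyltransferase annotation, YALI0_E22506g, rose from 11.9 and 12.1 to 72.5 and 75.7 (2.53). The methylenetetrahydrofolate dehydrogenase gene YALI0_E01056g, whose product converts folate-bound one-carbon units, fell from 987 and 1028 to 62.9 and 65.0 (-3.96), and another gene with this annotation, YALI0_F30745g, rose with a log2 fold change of 1.47. Methionine synthase, YALI0_E12683g, which uses the methyl group of folate and belongs to the list of amino acid biosynthesis, fell from 1653 and 1669 to 280 and 286 (-2.55). In that list as a whole 12 of 59 genes rose and 3 fell (5 under median-of-ratios scaling), no more often than the 22.5% and 12.7% of all tested genes, and D-3-phosphoglycerate dehydrogenase, YALI0_F09966g, the first step to serine, rose from 15.9 and 16.4 to 183 and 190 (3.45).

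**Figure D2:**
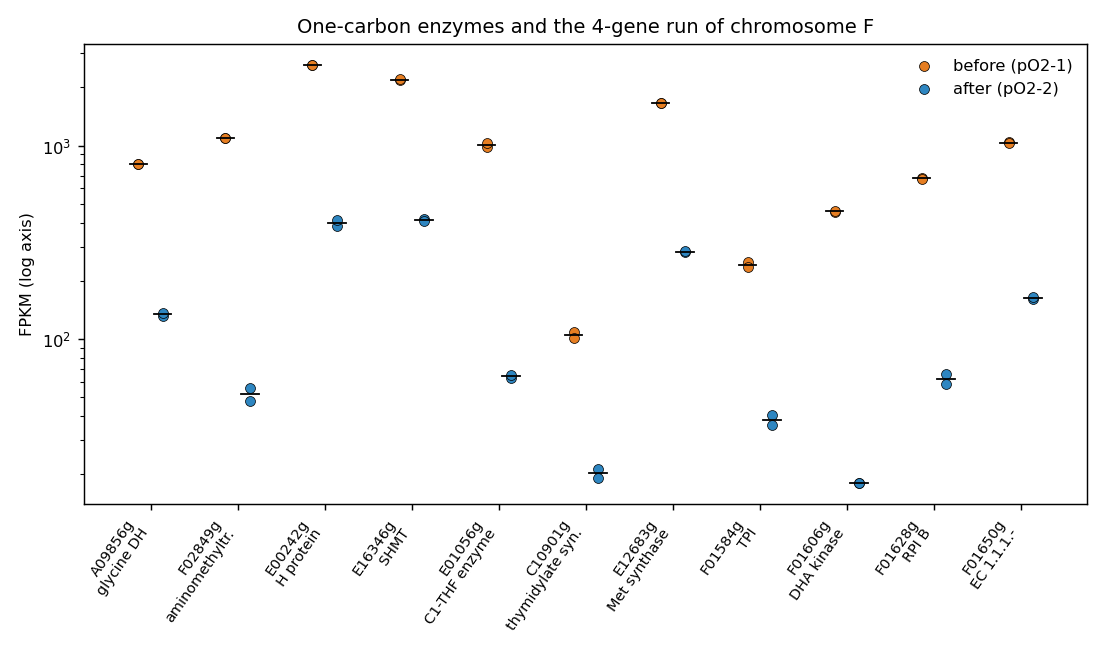
FPKM on a log axis in each of the 4 libraries for 7 one-carbon genes and the 4 genes of the run on chromosome F. Orange points are libraries before and blue points libraries after glycerol limitation, and bars are the means of 2 replicates. The one-carbon genes were picked because they fell, and YALI0_E22506g and YALI0_F30745g, which rose, are not shown. In every gene shown both blue points lie below both orange points.

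The largest single decrease was in YALI0_B05654g (chromosome B, 766032 to 767225), annotated as candidapepsin, a secreted aspartic protease. Its FPKM was 4828 and 4853 before, among the 10 highest of all genes, and 12.6 and 14.7 after (log2 fold change -8.37, SE 0.069, adjusted p from limma 1.6e-08). YALI0_E01210g, with no KEGG hit, went from 1394 and 1398 to 4.03 and 4.98 (-7.99). YALI0_F25113g, listed as a transcriptional regulator, went from 5328 and 5276 to 73.3 and 74.1 (-6.15). The groups lay far apart in all of them. Further decreases were found in an amidase, YALI0_E11847g (-5.38), the copper transporter YALI0_C20295g (-4.68), biotin synthetase, YALI0_D15400g (-4.30), and 4-aminobutyrate aminotransferase, YALI0_E18238g, which starts the breakdown of 4-aminobutyrate (2872 and 2937 before, 162 and 161 after, -4.16). The copper transporter, biotin and aminobutyrate genes were singled out after their values were seen.

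Of the 12 largest increases outside the genes named in the paper, 8 were in genes without a KEGG hit, against 36.6% of all tested genes. Of those with one, YALI0_F19712g (chromosome F, 2621456 to 2622626), an ADP/ATP carrier of the inner mitochondrial membrane, had an FPKM of 1.05 in both libraries before and of 408 and 417 after (log2 fold change 7.66, SE 0.075, adjusted p from limma 1.7e-08). A second ADP/ATP carrier gene, YALI0_A10659g, was already at 578 and 569 before and rose to 1642 and 1636 (1.51). YALI0_C19558g, annotated as a poly(rC)-binding protein, went from 3.03 and 3.68 to 851 and 866 (7.63), and YALI0_C15532g, annotated as a metallopeptidase, from 0.64 and 0.50 to 172 and 173 (6.79). The highest fitted value, 7.94, belonged to YALI0_E17435g, which has no KEGG hit and rested on about 1 fragment before limitation. The ratio of its fragments was 1264, with a 95% counting interval of 226 to 49952. Since 1 was added to each FPKM, the fold changes of such low genes are understated.

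Proteases, which degrade proteins in the vacuole or outside the cell, did not move as 1 list either. Of 51 tested members 11 rose, a share near the 22.5% of all tested genes, and 15 fell, a share above the 12.7%. Opposite to candidapepsin, YALI0_A10208g, annotated as the subtilisin-type protease cerevisin, went from 0.31 and 0.77 to 120 and 115 (log2 fold change 6.28). Of 35 proteasome genes 1 fell and none rose, both below the shares of all tested genes. In fatty acid and triacylglycerol synthesis 4 of 14 genes rose, a share near the 22.5% of all tested genes, and none fell (1 under median-of-ratios scaling). Those that rose include both subunits of fatty acid synthase, with YALI0_B15059g (beta) going from 157 and 155 to 659 and 670 (2.09) and YALI0_B19382g (alpha) from 71.1 and 69.6 to 180 and 173 (1.31). Acetyl-CoA carboxylase, YALI0_C11407g, which makes the malonyl-CoA for this synthase, rose from 106 and 106 to 288 and 293 (1.45). The before and after libraries lay apart in each of these genes.

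Transporters and redox enzymes held members with large changes in both directions. Of 31 amino acid and peptide transporters 9 rose and 11 fell, of 23 genes of nitrogen metabolism 6 rose and 6 fell, and of 15 tested sugar transporters 5 rose and 3 fell. Over all tested genes 22.5% rose and 12.7% fell, and the rising share of nitrogen metabolism was near the first of these. Of 35 redox defence genes 8 rose, near the share of all tested genes, and 1 fell (2 under median-of-ratios scaling). Of 10 tested siderophore transporters 2 rose (1 when either pO2-2 replicate was left out), again near that share, and none fell (2 with a pseudocount of 0.1 and 1 without pO2-2 replicate 1). Among the amino acid and peptide transporters the extremes were both annotated as amino acid transporters. YALI0_C09889g rose from 6.35 and 7.24 to 415 and 418 (5.75), and YALI0_C17237g fell from 996 and 981 to 48.6 and 42.9 (-4.41). The ammonium transporter genes YALI0_B13794g and YALI0_A19228g rose from 304 and 309 to 2407 and 2369 (2.96) and from 315 and 306 to 1854 and 1838 (2.57). A sugar symporter, YALI0_D00363g, rose from 3.93 and 3.79 to 375 and 366 (6.26), and a siderophore transporter, YALI0_C06105g, which takes up chelated iron, from 3.46 and 3.34 to 295 and 294 (6.07). Superoxide dismutases, which remove superoxide with different metals, moved in both directions. The iron or manganese type YALI0_C16621g fell from 1834 and 1902 to 184 and 177 (-3.37), another of this type, YALI0_B20086g, rose from 13.4 and 12.2 to 87.1 and 81.7 (2.63), and the copper/zinc type YALI0_E12133g rose from 292 and 298 to 1335 and 1377 (2.20). The peroxiredoxin YALI0_A19426g, which reduces peroxides, rose from 109 and 112 to 1409 and 1425 (3.67). In all genes of this paragraph the groups did not overlap, which the naming rule required of members picked by their change.

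**Figure D3:**
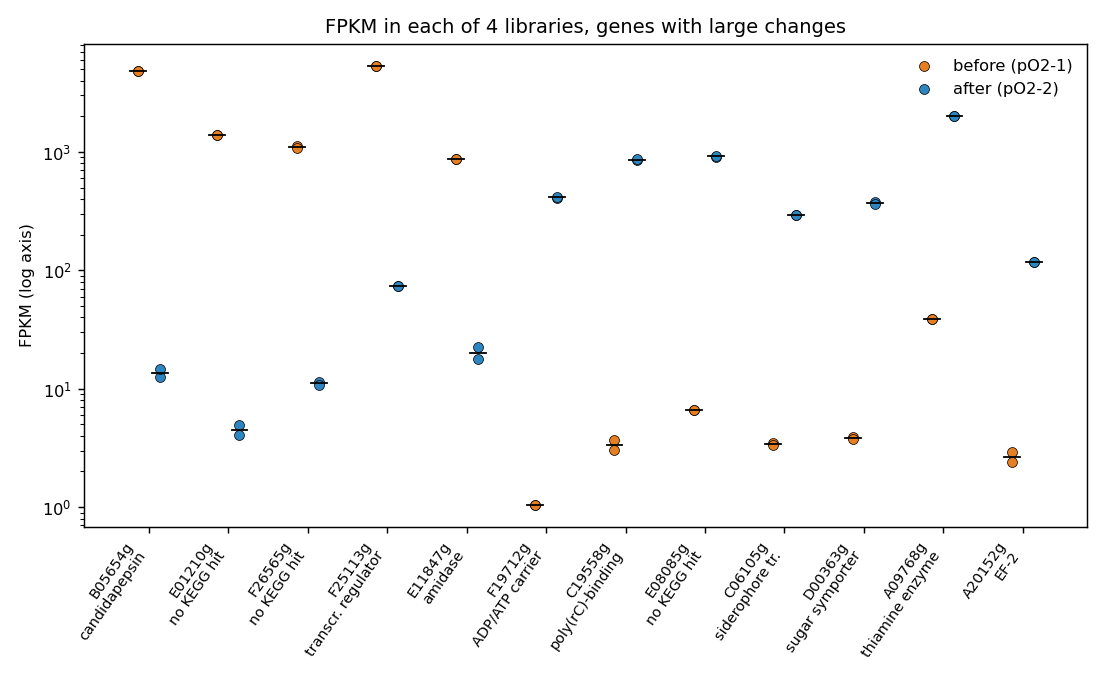
FPKM on a log axis in each of the 4 libraries for 12 genes with large changes. Orange points are libraries before and blue points libraries after glycerol limitation, and bars are the means of 2 replicates. Candidapepsin (B05654g) is near 4840 before and near 14 after, and the ADP/ATP carrier (F19712g) is at 1.05 before and above 400 after.

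Whether these responses differed between the cultures was tested as an interaction over all 8 libraries. Of 6278 genes, 742 (11.8%) had a response more positive by a log2 value of at least 2 without pO2 control and 430 (6.85%) a more negative one. In the ribosomal protein list 42 of 73 members were in the second class and none in the first, and the median without pO2 control was 0.85. In the DNA replication list 31 of 46 were in the first class and none in the second. The median was 1.15 without pO2 control, against -1.08 with it, and DNA polymerase alpha differed by 4.86 (SE 0.17, adjusted p from limma 4.7e-07). Histone genes differed in the same direction, 7 of 10 being in the first class. The sterol list did not separate in this way, with medians of -1.50 without and -1.35 with pO2 control and 2 members in each class. Peroxisomal beta-oxidation genes, which degrade fatty acids, had a median of 0.03 with and 3.58 without pO2 control, and 8 of 11 were in the first class. The H protein of the glycine cleavage system had log2 fold changes of -2.71 with and -2.09 without pO2 control, a difference of 0.62 (adjusted p = 0.0012). In the run on chromosome F, YALI0_F01584g, YALI0_F01628g and YALI0_F01650g had log2 fold changes of 1.54, 2.01 and 2.79 without pO2 control. YALI0_F01606g had log2 fold changes of -4.60 with and -1.48 without it. The peroxiredoxin YALI0_A19426g rose with and fell without pO2 control (3.67 and -3.16, difference -6.83, adjusted p from limma 7.7e-09). Its FPKM before limitation was 109 and 112 with pO2 control, and 5766 and 5364 without it. The interaction test compares changes and not levels, and levels before limitation differed between the cultures in some genes. The variance between replicates without pO2 control was 19.1 and 16.0 times the counting noise, and the single estimate of spread in this fit is shared by both cultures.

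**Figure D4:**
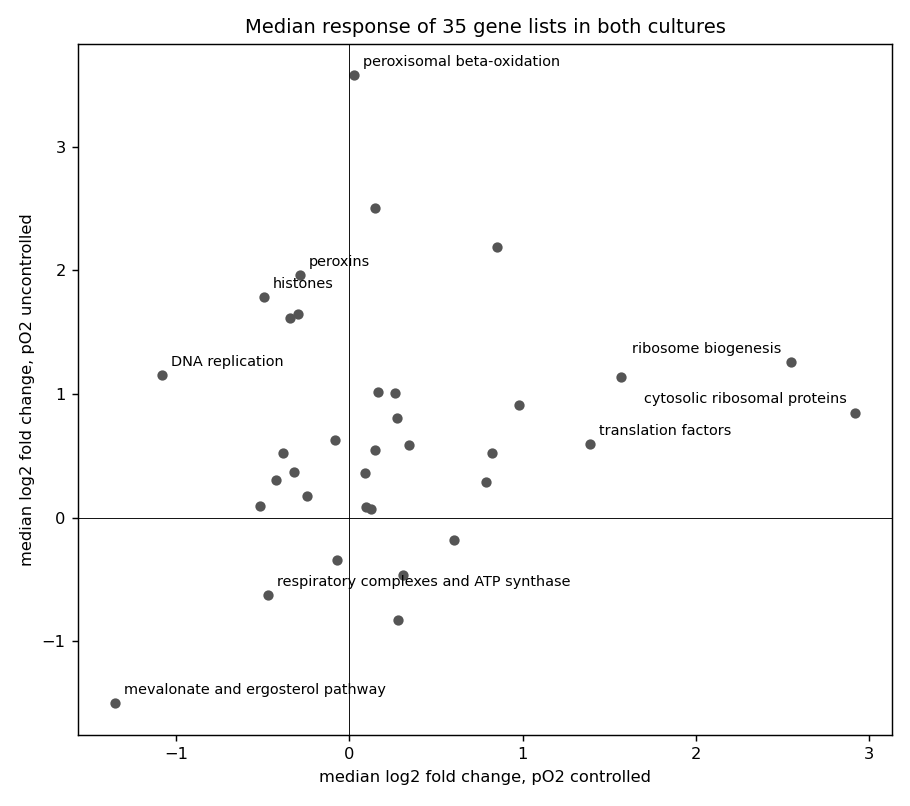
Median log2 fold change of FPKM + 1 after over before glycerol limitation with pO2 control (x axis) and without it (y axis) for 35 gene lists (points). Ribosomal proteins lie at 2.92 and 0.85, DNA replication at -1.08 and 1.15, and peroxisomal beta-oxidation at 0.03 and 3.58.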

How the data were processed

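RNA of 4 groups with 2 replicates each was sequenced in pairs of reads. The authors aligned them to the genome of CLIB122 using TopHat2 and deposited FPKM values from Cufflinks, 1 per gene and library. FPKM are relative to the mapped fragments, so a list that takes a larger share leaves less for others. All value columns were mapped to samples, with 0 left unmapped. For each gene log2(FPKM + 1) was fitted with limma 3.58.1 in R 4.3.3 (empirical Bayes with a variance trend, 2 residual degrees of freedom, no block). On simulated data with 200 of 5476 genes changed by a log2 value of 3, 99.0% were recovered with 0 false calls. The changed genes were drawn from well-covered ones, and the noise was set little above counting noise. Neither variance between fermentations nor a shift in composition was simulated. The result therefore shows only that the fit finds large changes, and says nothing on false calls in the real data. Fragment numbers were estimated from the steps of low FPKM, of which 96.1% to 98.9% came within 0.1 of a whole number in the 4 libraries, and intervals cover counting error only.

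Lists were assigned by the first KEGG hit at an e-value of at most 1e-30. Members, lists and genes were chosen with earlier results of these data known. The 35 planned lists and a naming rule were set down together, and 9 further groups and some genes were added after values were seen. The rule took, outside the 60 genes named in the paper, the 12 largest increases and 12 largest decreases at an FPKM of at least 10, up to 4 members per list, all members of lists of at most 12 genes, the 10 most abundant genes per group, and runs of at least 4 neighbours. Not all are named. Alternatives were another pseudocount, filter, scaling, variance model and threshold, a replicate block, and leaving out each library. Tables and figures were made with Python 3.11.15, pandas 2.3.3 and matplotlib 3.10.9.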

Additional observations from a re-analysis of the deposited data

Results flagged for a closer look

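Of the 12 largest increases and 12 largest decreases, the response differed between the cultures in 21 genes by the interaction test in limma (adjusted p under 0.05), which 4219 of all 6278 genes (67.2%) also passed. The differences are given as the log2 response without minus that with pO2 control. Among the increases they were -3.94 for YALI0_E17435g, -2.77 for the ADP/ATP carrier YALI0_F19712g, -1.92 for YALI0_C19558g, -3.49 for YALI0_D26411g, -3.28 for YALI0_E33385g, -1.49 for YALI0_F19822g, -2.33 for YALI0_B08052g, -3.56 for YALI0_E08085g, 0.95 for YALI0_E35156g, -4.01 for YALI0_C15532g, -6.40 for YALI0_D17292g and -1.01 for YALI0_E00704g. These genes were chosen by their response with pO2 control, so the side of that response is fixed by the choice.

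Among the decreases the differences were 9.71 for the candidapepsin gene YALI0_B05654g, 6.70 for YALI0_E01210g, -1.74 for YALI0_F26565g, 10.82 for YALI0_F09691g, 0.38 for YALI0_F25113g, 1.85 for YALI0_C15466g, 1.07 for YALI0_B06413g, 2.50 for the aquaporin YALI0_E07205g and 5.89 for YALI0_B18194g. The log2 fold change was above 0 without pO2 control in 3 of these genes. Before limitation the candidapepsin gene had an FPKM of 24.4 and 13.9 without pO2 control, against 4828 and 4853 with it.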

How the results depend on the processing

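Each count over all genes stayed within 1.5 times its value under the alternatives run for it. The response differences were not recomputed with another filter, without a variance trend or at another adjusted p. Genes higher and lower at a log2 fold change of at least 2 numbered 653 and 293 with a pseudocount of 0.1, 549 and 294 with median-of-ratios scaling, 588 and 266 with an FPKM of at least 5, and 562 to 599 and 255 to 265 without 1 library. Without a filter, without a variance trend and at an adjusted p under 0.01 they were 592 and 267. With a replicate block, which pairs libraries of the same number, they were again 592 and 267, and the deviations of same-numbered replicates had a correlation across genes of 0.03. With a replicate variance near counting noise this value cannot show whether the numbers pair the libraries, and the labels give no pairing. The response differences numbered 862 and 463 with a pseudocount of 0.1, 645 and 554 with scaling, 742 and 430 with the block, and 713 to 753 and 420 to 454 without 1 library. Of 616 recomputed list counts 19 moved by over 1.5 times, all in counts of at most 9 genes, and no gene named here changed direction. Depth limits genes below about 1 FPKM, where a few fragments set the fold.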

Other observations

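RNA helicases and tRNA-modifying enzymes, groups formed after values were seen, had medians of 2.20 and 2.03. Their counts stand against 22.5% rising and 12.7% falling over all tested genes. Of 30 helicases 21 rose and 1 fell, among them the DDX24/MAK5 type YALI0_A04939g (1.97 and 1.70 before, 39.8 and 38.6 after, log2 fold change 3.83). Of 42 tRNA-modifying enzymes 32 rose and 2 fell, among them tRNA-dihydrouridine synthase 1, YALI0_B21516g (1.38 and 1.37 before, 31.5 and 32.7 after, 3.80). In pyrimidine metabolism the gene for the first steps of new synthesis, YALI0_E09493g, rose (6.77 and 6.28 before, 94.7 and 97.7 after, 3.69), while both genes named here as uracil phosphoribosyltransferase, a salvage enzyme, fell and were picked after their values were seen (YALI0_E20625g, -3.88, and YALI0_F31273g, -2.68).

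Of 410 KEGG numbers carried by at least 2 tested genes, 52 had members that rose and members that fell, and in 22 of them both passed a log2 fold change of 2. Since 22.5% of all tested genes rose and 12.7% fell, such numbers also occur among unrelated genes, and these counts are a description only. Aquaporins and aquaglyceroporins, which pass water and glycerol, are another group formed after values were seen. Among 10 tested members 2 rose (1 under median-of-ratios scaling) and 5 fell, against 22.5% and 12.7% of all tested genes. The aquaglyceroporin gene YALI0_F00462g, had 47.7 and 54.9 before and 8.26 and 8.85 after (-2.45).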
